A study of Homo sapiens and Mus musculus with 22 samples.

Results

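Expression of 9 genes of regulated cell death was followed through small cell lung cancer (SCLC) cells with high or low MHC class I, which displays peptides on the cell surface for T cells to read. The genes were chosen by symbol, with earlier results of these data known. They are the death receptors FAS and TNFRSF10B, the caspases CASP8 and CASP4, the pore former GSDMD and the necroptosis genes RIPK1, RIPK3, MLKL and ZBP1. All 9 are listed in each of the 3 count tables, among 25435 genes in the H69 and H69M table, 20113 in the H69EZ table and 24047 in the mouse table. The 22 RNA libraries fell into 8 groups. H69M is a derivative of the human SCLC line NCI-H69 (H69), and was sequenced as a PD-L1 high fraction (labelled MHC class I high), a PD-L1 low fraction (labelled low or negative) and unsorted (labelled high), beside parental H69 (labelled low or negative, n = 3 libraries each). H69EZ came from H69 cells given an EZH2 inhibitor for 6 days and then grown drug-free while those that attached were kept. It was sorted into cells high and low for HLA-ABC (n = 2 each). RPP-A is the adherent, MHC class I high derivative of the mouse SCLC line 631RPP (RPP, labelled low or negative, n = 3 each). Each setting is thus 1 line and its derivative, and the labels state neither whether lines are clones nor whether replicates were separate cultures, so the p-values speak for the scatter among these libraries alone, which may be technical.

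FAS and TNFRSF10B (DR5, a receptor of the ligand TRAIL) are surface receptors that, once bound, gather the adaptor FADD and caspase-8, which starts apoptosis. Caspase-8 also cleaves RIPK1 and RIPK3 and so holds back necroptosis, in which RIPK3, joined by RIPK1 or by the nucleic acid sensor ZBP1 through their shared RHIM segments, phosphorylates MLKL and MLKL opens the plasma membrane. Caspase-4 (caspase-11 in the mouse) senses bacterial lipopolysaccharide inside the cell and cleaves gasdermin D, whose fragment forms the pores of pyroptosis. Loss of CASP8 and of death receptors has been described in SCLC lines.

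Total counts per library were 10817795 to 52458228. B2M, the light chain of MHC class I, followed the labels, at 1740 ± 93.1 CPM in the PD-L1 high fraction, 174 ± 4.23 in the PD-L1 low fraction, 449.5 ± 22.0 in unsorted H69M and 258 ± 3.24 in H69 (SD, n = 3 each). It was at 802 ± 44.4 CPM in HLA high and 155 ± 0.512 in HLA low cells (n = 2 each), and B2m at 2069 ± 468 in RPP-A and 68.2 ± 4.29 in RPP (n = 3 each). CD274, which encodes PD-L1, was at 13.3 ± 0.424 CPM in the PD-L1 high fraction and 0.265 ± 0.152 in the PD-L1 low fraction. CPM are counts scaled to library size with TMM factors, and are compared only for 1 gene between libraries of the same table, since each table was made separately and genes differ in length. The summed CPM of 6 neuroendocrine markers was 1145 to 1207 in the PD-L1 high fraction, 4134 to 4361 in the PD-L1 low fraction, 2944 to 3025 in H69M and 3065 to 3257 in H69. It was 565.9 to 586.9 in HLA high and 1908 to 1924 in HLA low cells, and 152 to 196 in RPP-A and 2989 to 3828 in RPP. The sum of 7 fibroblast markers, which mesenchymal tumour cells can also express, was 11150 to 11450 in the PD-L1 high fraction, 237 to 333.5 in the PD-L1 low fraction, 2505 to 2797 in H69M and 146 to 149 in H69. It was 16370 to 17800 against 94.0 to 96.8 in the HLA sort and 22550 to 30110 in RPP-A against 75.5 to 422 in RPP. Of 8 leukocyte markers, CD3E and NKG7 were at 0 in every group, and the sum reached 7.98 to 9.19 in the PD-L1 high fraction against 1.77 to 2.75 in the PD-L1 low fraction, 5.89 to 6.63 in HLA high against 4.73 to 5.44 in HLA low cells, and 32.9 to 36.7 in RPP-A, where Ptprc was at 0, against 2.69 to 3.32 in RPP. These marker sums differed between the fractions of each sort and between RPP-A and RPP, as the tested members did. Between H69M and H69 the fibroblast sums differed too, with all 7 markers called higher in H69M. The neuroendocrine sums were close there, with 2 of the 6 markers called higher and 3 lower, and the leukocyte sums overlapped (3.82 to 4.36 and 3.51 to 4.18). The part of the marker sums in the results below was not tested. In such bulk libraries, fewer cells with a transcript and less of it per cell cannot be told apart. In the mouse table the column EHK_RPP4 stood apart from the other RPP columns (chi-square per degree of freedom 28.1 and 31.7, against 3.42 between the others), and RPPM3 from the other RPP-A columns (34.3 and 37.2, against 1.33), and member values are given without them where that matters.

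The receptors and the pyroptosis genes were near 0 in H69 and higher in unsorted H69M and in its PD-L1 high fraction. TNFRSF10B was at 63.9, 54.3 and 56.0 CPM in the PD-L1 high fraction, 0.709, 0.465 and 1.52 in the PD-L1 low fraction, 14.8, 15.1 and 14.4 in H69M and 0.161, 0.151 and 0.0807 in H69. The 4 groups did not overlap, as was the case for 25.1% of all genes tested, and H69 held 9 counts in all. FAS was at 15.0, 15.1 and 15.2 CPM in the PD-L1 high fraction, 0.266, 0.279 and 0.289 in the PD-L1 low fraction, 4.49, 4.13 and 3.44 in H69M and 0.241, 0.264 and 0.0807 in H69. The PD-L1 low fraction and H69, with 16 and 14 counts, lay next to each other and far below the rest.

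In the PD-L1 low fraction CASP4 kept 17.7% of its PD-L1 high level, against 1.55% for TNFRSF10B and 1.84% for FAS. Both CASP4 and TNFRSF10B were above H69 there. CASP4 was at 38.8, 38.6 and 39.4 CPM in the PD-L1 high fraction, 7.09, 6.97 and 6.58 in the PD-L1 low fraction, 12.7, 15.0 and 13 in H69M and 0.0805, 0.151 and 0 in H69. GSDMD, the substrate of caspase-4, was at 10.5, 8.97 and 9.56 CPM in the PD-L1 high fraction, 0.576, 0.186 and 0.289 in the PD-L1 low fraction, 1.75, 2.34 and 2.26 in H69M and 0.121, 0 and 0.0807 in H69. Both genes kept the 4 groups apart in the same order, PD-L1 high, H69M, PD-L1 low and H69, as did TNFRSF10B and MLKL. Of all genes tested, 25.1% kept the 4 groups apart in some order.

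CASP8 and RIPK1 were expressed in H69 and followed another order. CASP8 was at 12.9, 10.1 and 10.7 CPM in the PD-L1 high fraction, 1.06, 0.883 and 1.16 in the PD-L1 low fraction, 2.20, 3.03 and 2.75 in H69M and 2.13, 2.42 and 3.07 in H69. H69M and H69 overlapped, and the PD-L1 low fraction was the lowest. RIPK1, the kinase that stands between survival signalling and death at these receptors, was at 57.5, 56.3 and 55.6 CPM in the PD-L1 high fraction, 24.8, 22.9 and 26.9 in the PD-L1 low fraction, 29.3, 33.1 and 32.1 in H69M and 42.5, 44.1 and 47.8 in H69. H69 was thus second highest for RIPK1, and the H69M and PD-L1 low libraries were below it without overlap. Of all genes tested, 72.9% did not overlap between H69M and H69, and 75.5% between the PD-L1 low fraction and H69.

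Of the necroptosis machinery downstream of RIPK1, only the last step was detected in these cells. MLKL, the membrane executioner, was at 9.64, 10.7 and 10.5 CPM in the PD-L1 high fraction, 2.39, 2.42 and 2.31 in the PD-L1 low fraction, 6.61, 5.37 and 5.77 in H69M and 1.13, 1.28 and 1.69 in H69. RIPK3, the kinase that activates MLKL, had no count in any of the 12 libraries, which allows a level of up to 0.0562 CPM in the PD-L1 high fraction, 0.0518 in the PD-L1 low fraction, 0.0438 in H69M and 0.0471 in H69 (3 counts over a group, counting error only). ZBP1 had 1 count, in a PD-L1 low library, and none in the other groups. The high levels of the receptors, CASP4, GSDMD and MLKL in the PD-L1 high fraction therefore stood beside RIPK3 and ZBP1 at or under the detection floor.

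**Figure D1:**
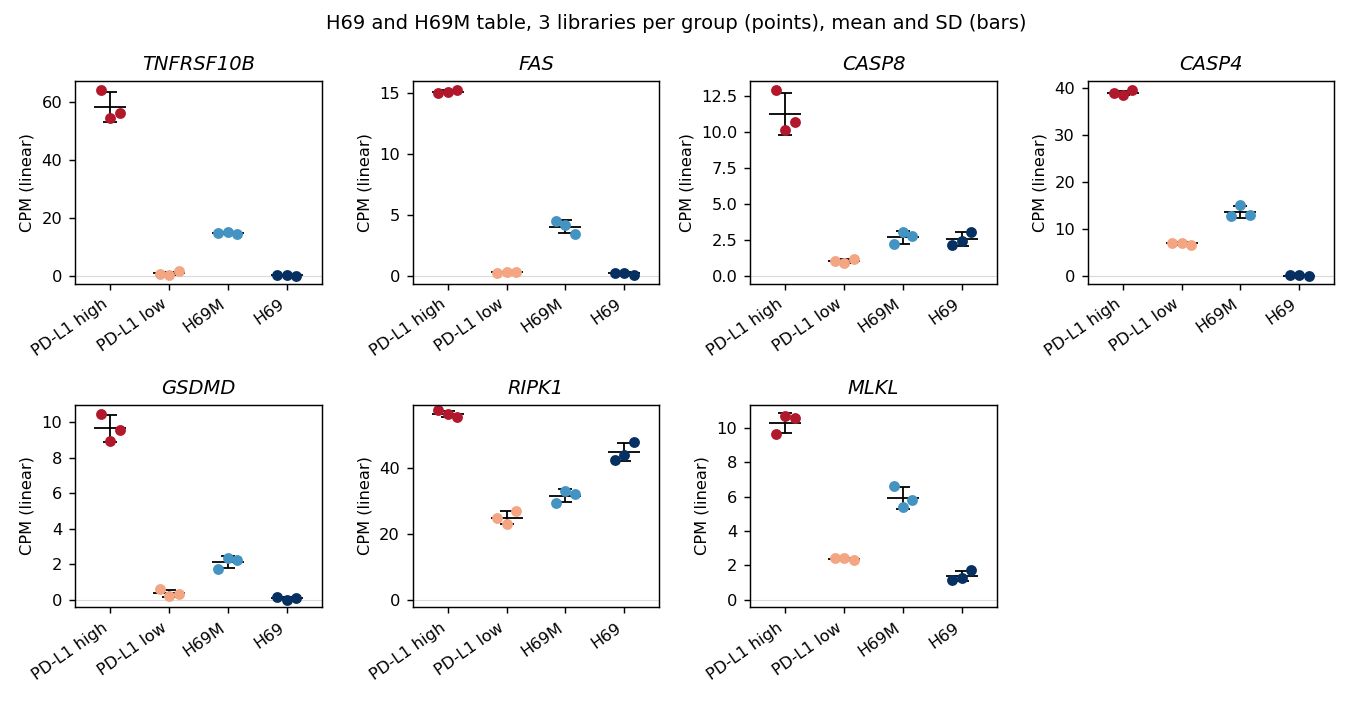
CPM of 7 members on linear axes in the PD-L1 high and PD-L1 low fractions of H69M, unsorted H69M and H69. Points are the 3 libraries of each group and bars the mean ± SD, and the PD-L1 high fraction is the highest for each of the 7, while H69 is near 0 for TNFRSF10B, FAS, CASP4 and GSDMD and second highest for RIPK1 (RIPK3 and ZBP1, near 0 throughout, are not drawn).

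Set against H69, unsorted H69M was higher for 5 members and lower for 1. Across all genes tested in this comparison, 72.5% were called in 1 direction or the other at an adjusted p under 0.05, so that a call by itself says little about the members. Of the 9, 7 passed the filter on low counts, all but RIPK3 and ZBP1. No H69 library reached the filter level of 0.477 CPM for CASP4, TNFRSF10B, FAS or GSDMD, which passed through the other groups and so had to differ. The log2 fold changes were 7.08 ± 0.22 for CASP4 (SE, adjusted p = 2.18e-16), 6.65 ± 0.25 for TNFRSF10B (adjusted p = 4.43e-15), 4.15 ± 0.24 for FAS (adjusted p = 5.61e-12), 4.94 ± 0.45 for GSDMD (adjusted p = 5.78e-09) and 2.17 ± 0.15 for MLKL (adjusted p = 1.32e-10). RIPK1 was lower in H69M (-0.50 ± 0.07, adjusted p = 1.72e-06), and CASP8 was not called (0.12 ± 0.18, adjusted p = 0.566). Fitted values of genes with so few counts in H69 depend on single libraries. Without H69 replicate 2, CASP4 was at 7.82 and GSDMD at 4.22, and without H69 replicate 1, GSDMD was at 6.05.

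Between the fractions of H69M, all 7 tested members were higher in the PD-L1 high cells, where 78.3% of genes were called. No PD-L1 low library reached the filter level for FAS and 1 of 3 did for GSDMD. Their log2 fold changes were 6.15 ± 0.16 for TNFRSF10B (adjusted p = 4.70e-18), 5.74 ± 0.19 for FAS (adjusted p = 2.75e-16), 4.72 ± 0.25 for GSDMD (adjusted p = 4.87e-13) and 3.46 ± 0.18 for CASP8 (adjusted p = 3.57e-13). CASP4 rose by 2.49 ± 0.09 (adjusted p = 1.5e-15), MLKL by 2.10 ± 0.13 (adjusted p = 9.88e-12) and RIPK1 by 1.19 ± 0.07 (adjusted p = 3.45e-12). GSDMD was at 5.34 without PD-L1 low replicate 1. The PD-L1 low fraction kept 1.55% of the PD-L1 high level of TNFRSF10B, 1.84% of that of FAS and 3.62% of that of GSDMD, but 17.7% for CASP4, 23.1% for MLKL and 44.0% for RIPK1. Unsorted H69M lay between its fractions for every tested member, at 15.9% of the way from low to high for CASP8, 18.9% for GSDMD, 20.8% for CASP4, 21.2% for RIPK1, 24.3% for TNFRSF10B, 25.3% for FAS and 44.8% for MLKL.

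The change with the PD-L1 sort was also tested against the change of H69M minus H69, a contrast in which 71.4% of genes were called. It was called for 4 of the 7 members, which is no larger a share than among all genes. CASP8 (difference 3.34 ± 0.27 on the log2 scale, adjusted p = 8.10e-10), RIPK1 (1.69 ± 0.10, adjusted p = 5.78e-12) and FAS (1.59 ± 0.50, adjusted p = 0.00807) had the larger log2 fold change with the sort, and CASP4 (-4.59 ± 0.32, adjusted p = 1.24e-10) the smaller. The FAS call was lost without H69 replicate 2 (adjusted p = 0.0761), and CASP4 was at -5.32 without that library. TNFRSF10B (-0.50 ± 0.53), MLKL (-0.07 ± 0.21) and GSDMD (-0.23 ± 0.58) were not called.

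The remaining pairs of the 4 groups place the members in order, and each shares its libraries with the comparisons above. In the PD-L1 low fraction against H69, where 75.9% of genes were called, CASP4 (6.11 ± 0.26), TNFRSF10B (2.48 ± 0.50), GSDMD (2.42 ± 0.70) and MLKL (0.86 ± 0.19) were higher and CASP8 (-1.26 ± 0.23) and RIPK1 (-0.85 ± 0.07) lower. FAS was not called (0.33 ± 0.46, adjusted p = 0.572). With only these groups fitted, neither FAS nor GSDMD passed the filter. The GSDMD call (adjusted p = 0.00432) was lost without PD-L1 low replicate 1 (1.77, adjusted p = 0.0605), and its log2 fold change was 3.52 without H69 replicate 1 and 1.70 without H69 replicate 2, while CASP4 was at 6.85 without H69 replicate 2. In the PD-L1 high fraction against H69, where 77.6% of genes were called, all 7 were higher, from 0.34 ± 0.07 for RIPK1 (adjusted p = 1.03e-04) to 8.62 ± 0.20 for TNFRSF10B and 8.60 ± 0.19 for CASP4 (9.34 without H69 replicate 2), with GSDMD at 7.13 ± 0.33 (8.24 without H69 replicate 1 and 6.41 without H69 replicate 2). Against unsorted H69M, all 7 were lower in the PD-L1 low fraction (65.6% of genes called), from -0.35 ± 0.07 for RIPK1 to -4.17 ± 0.18 for TNFRSF10B, with GSDMD at -2.53 ± 0.32, or -3.19 without PD-L1 low replicate 1. The PD-L1 high fraction exceeded unsorted H69M for all 7 (70.4% of genes called), from 0.79 ± 0.11 for MLKL to 2.19 ± 0.17 for GSDMD. Neighbouring groups whose difference was not called were thus H69M and H69 for CASP8 (interval of 2 SE from -0.24 to 0.48) and the PD-L1 low fraction and H69 for FAS (-0.59 to 1.24, from 16 and 14 counts).

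Over the 12 libraries of this table, log2 CPM of FAS correlated with that of TNFRSF10B (Pearson r = 0.986), GSDMD (0.981) and MLKL (0.968), whereas CASP4 and RIPK1 were nearly unrelated (0.0607). These values describe 4 groups of 3 libraries each, so they mostly reflect the group means. Among 15438 other genes, those most like TNFRSF10B included CHST11 and DAB2 (r = 0.999 each) and those most like FAS were ALDH1A3, EREG and TNIP3 (0.998). NFE2L3, MLF1 and CDH2 were most like CASP4 (0.996 to 0.998), and KIAA1462, CPA3 and PLOD1 most like GSDMD (0.996 to 0.997). NRG1, ANXA1 and TMEM106A were most like MLKL (0.993 to 0.994), TPBG, TMEM127 and LAMP1 most like CASP8 (0.991 to 0.992) and NR1H2, CHST2 and ARHGAP35 most like RIPK1 (0.992 to 0.993).

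Sequences around the annotated starts are shown for 4 members, 2 of which differ from the others in their order across the groups (CASP8 and RIPK1) and 2 of which were highest in the PD-L1 high fraction and lowest in H69 (MLKL and CASP4). They are RefSeq windows of 300 bases, from 250 before to 50 after a start, on GRCh38.p14, written 5′ to 3′ on the gene's strand. Windows were matched by symbol for 5 of the 9 members, 11 in all. The windows are CASP8 at chr2:201233213-201233512, plus strand, RIPK1 at chr6:3068128-3068427, plus strand, CASP4 at chr11:104968525-104968824, minus strand and MLKL at chr16:74700813-74701112, minus strand. Capitals mark matches to the interferon-stimulated response element (ISRE, which reads TTTC, then any 2 bases, then TTTC) or to the gamma-activated site (GAS, TTCNNNGAA), searched on both strands.
CASP8: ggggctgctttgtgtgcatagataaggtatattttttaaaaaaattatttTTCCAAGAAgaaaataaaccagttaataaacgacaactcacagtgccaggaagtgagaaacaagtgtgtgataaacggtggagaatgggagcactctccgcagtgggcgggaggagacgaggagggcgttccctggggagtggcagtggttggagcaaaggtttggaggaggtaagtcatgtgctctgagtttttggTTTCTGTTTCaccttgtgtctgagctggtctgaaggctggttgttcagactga
RIPK1: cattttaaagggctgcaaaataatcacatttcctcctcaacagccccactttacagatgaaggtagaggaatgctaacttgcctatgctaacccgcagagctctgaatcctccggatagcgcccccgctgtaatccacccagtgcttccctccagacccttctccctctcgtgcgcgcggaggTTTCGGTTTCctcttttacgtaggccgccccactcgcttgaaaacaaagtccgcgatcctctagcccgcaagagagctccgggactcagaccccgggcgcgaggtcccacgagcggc
CASP4: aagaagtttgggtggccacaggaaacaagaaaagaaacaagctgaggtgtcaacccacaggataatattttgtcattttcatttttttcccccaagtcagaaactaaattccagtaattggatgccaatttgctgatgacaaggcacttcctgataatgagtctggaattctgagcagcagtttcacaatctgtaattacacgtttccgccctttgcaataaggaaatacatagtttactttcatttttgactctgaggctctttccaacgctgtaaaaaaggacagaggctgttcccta
MLKL: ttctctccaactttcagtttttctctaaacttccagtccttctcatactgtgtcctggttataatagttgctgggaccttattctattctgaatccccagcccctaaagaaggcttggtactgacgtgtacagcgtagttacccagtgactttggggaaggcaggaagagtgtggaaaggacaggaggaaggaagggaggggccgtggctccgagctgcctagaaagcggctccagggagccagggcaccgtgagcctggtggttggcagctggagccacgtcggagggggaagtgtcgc
The CASP8 window held a GAS match at position -200 and an ISRE match at position -3, counted from 0 at the annotated start, which do not overlap each other. The RIPK1 window held an ISRE match at position -67, which also falls in an overlapping window of that gene. CASP8 and RIPK1 had 3 windows each, and those shown were picked for their matches. The other 2 CASP8 windows and the first RIPK1 window held neither motif, and the other RIPK1 windows had 36 and 37 CG pairs. The windows of CASP4, MLKL and FAS (3 windows) had neither motif. Of 35116 windows of this length, 3.57% held the ISRE letters and 7.66% the GAS letters. CG pairs, the sites of DNA methylation, numbered 6 in the CASP8 window shown, 21 in that of RIPK1, 3 in that of CASP4 and 9 in that of MLKL, beside a median of 14 over all windows. A match describes letters only, and binding or methylation was not measured here.

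In the H69EZ line, the receptors were high in HLA high cells and nearly absent from the counts of HLA low cells. TNFRSF10B was at 93.4 and 90.8 CPM in the HLA high fraction, against 0.178 and 0.0928 in the HLA low fraction, from 13 counts there. FAS was at 31.7 and 35.5 CPM in HLA high cells, against 0 and 0.0928 in HLA low cells. All 4 counts of FAS in HLA low cells came from replicate 2. CASP4 was at 23.8 and 24.7 CPM in HLA high cells, against 0.237 and 0.394 in HLA low cells, and GSDMD at 9.21 and 8.63 CPM, against 1.23 and 1.32.

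CASP8, RIPK1 and MLKL were present on both sides of this sort. CASP8 was at 14.5 and 15.5 CPM in HLA high cells, against 5.55 and 5.03 in HLA low cells. RIPK1 was at 57.3 and 59.5 CPM in HLA high cells, against 34.8 and 33.0 in HLA low cells, and MLKL at 6.89 and 6.12 CPM, against 3.52 and 3.64. None of the 7 overlapped between the fractions, which with 2 libraries a group held for 90.2% of all genes tested. ZBP1 had no count in any of the 4 libraries, which allows up to 0.0340 CPM in HLA high and 0.0320 CPM in HLA low cells. RIPK3 had 3 and 4 counts in HLA high libraries and 10 and 6 counts in HLA low libraries. It did not pass the filter (0.225 CPM), and with all genes kept it was not called (adjusted p = 0.217).

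All 7 tested members were higher in HLA high than in HLA low cells, where 81.3% of all genes tested were called. The log2 fold changes were 9.53 ± 0.21 for FAS, 9.35 ± 0.15 for TNFRSF10B, 6.28 ± 0.16 for CASP4, 2.81 ± 0.15 for GSDMD, 1.5 ± 0.10 for CASP8, 0.87 ± 0.13 for MLKL (adjusted p = 1.42e-11) and 0.78 ± 0.07 for RIPK1 (adjusted p = 3.90e-26), and the other adjusted p-values were smaller still. With 2 libraries a group, the spread behind them was largely borrowed from other genes, so they say little about any 1 gene's own spread. No HLA low library reached the filter level for FAS or TNFRSF10B, which had to differ. FAS was at 8.45 without HLA low replicate 1, and without replicate 2, which leaves HLA low cells with no count, it was at least 563-fold higher in HLA high cells (against 3 counts in that library).

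**Figure D2:**
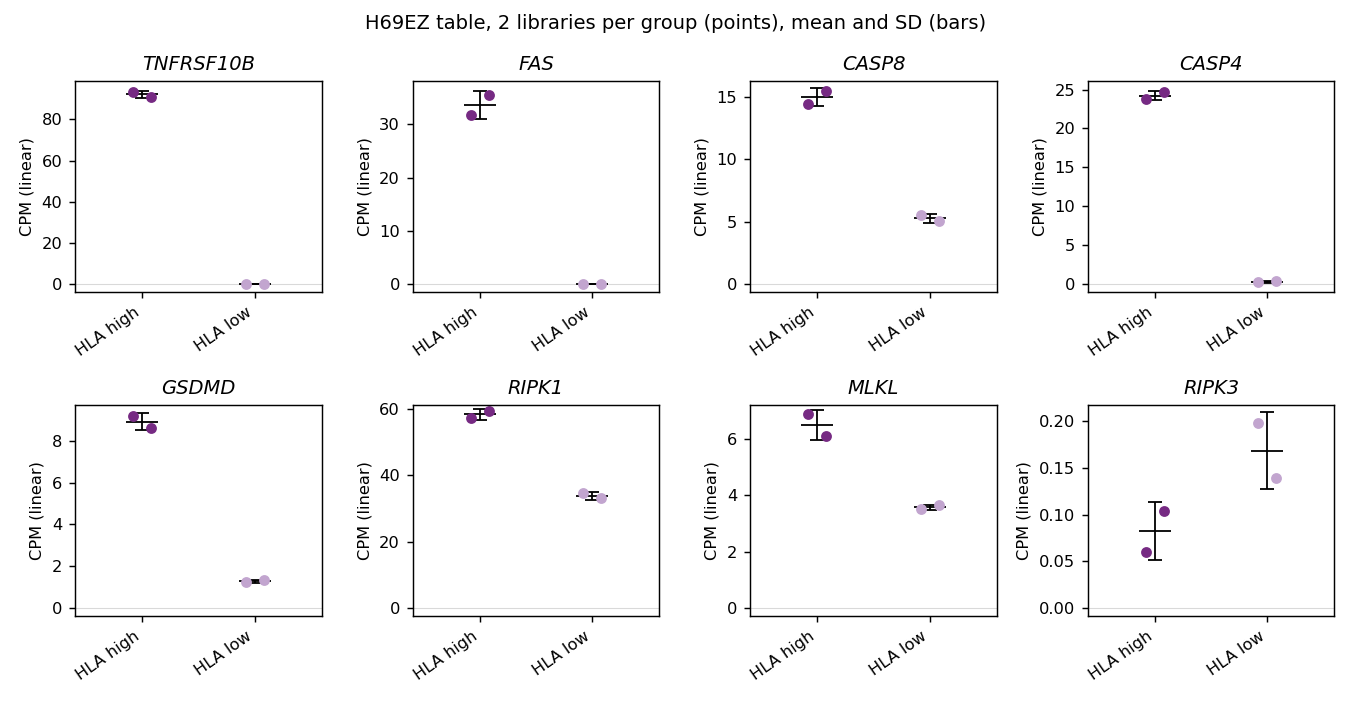
CPM of 8 members on linear axes in the HLA high and HLA low fractions of H69EZ. Points are the 2 libraries of each group and bars the mean ± SD, with TNFRSF10B, FAS and CASP4 near 0 in HLA low cells and RIPK3 under 0.2 CPM in all 4 libraries.

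In the human tables FAS shares exon sequence with ACTA2, a smooth muscle actin gene on the opposite strand. In GENCODE 29 (GRCh38) 8.93% of the FAS exon bases lie in ACTA2 exons, and whether counting used strand is not given in the sources used here. ACTA2 moved the same way, at 635.7 ± 39.8 CPM in the PD-L1 high fraction, 2.12 ± 2.86 in the PD-L1 low fraction, 140 ± 5.31 in H69M and 0.260 ± 0.109 in H69 (SD, n = 3 each). It was at 254.9 ± 4.65 CPM in HLA high cells and 0.0198 ± 0.0279 in HLA low cells (n = 2 each). Mouse Acta2 was at 1982 ± 450.2 CPM in RPP-A and 0.520 ± 0.543 in RPP (n = 3 each), and its overlap with Fas was not examined. The share of FAS counts that came from this overlap was not tested. FAS-AS1, a listed antisense gene, had at most 6 counts in a group of the H69 and H69M table. For TNFRSF10B 1.30% of exon bases lie in exons of the opposite gene RHOBTB2, and for RIPK1 5.63% in those of an unnamed antisense gene. RIPK3 shares 358 of its 3256 exon bases with an unnamed gene on the same strand, and the part of this overlap in its low counts was not tested.

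In the mouse pair, Ripk3 and Zbp1 were counted well above the filter level in RPP-A. Ripk3 was at 133, 143 and 136 CPM in RPP-A, against 3.75, 0.346 and 0.843 in RPP, and Zbp1 at 128, 141 and 142 CPM in RPP-A, against 0.652, 2.08 and 2.53 in RPP. The highest RPP value of Ripk3 and the lowest of Zbp1 both came from EHK_RPP4. Mlkl was at 79.3, 77.4 and 84.5 CPM in RPP-A, against 16.5, 16.8 and 18.9 in RPP. The lines did not overlap for these 3 genes, as for 82.3% of all genes tested, and Mlkl had the highest counts of the 3 in RPP.

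The receptors and pyroptosis genes were also lower in RPP than in RPP-A, Fas and Casp4 with few counts there and Tnfrsf10b and Gsdmd above the filter level in all 3 RPP libraries. Fas was at 84.2, 83.2 and 104 CPM in RPP-A, against 0.652, 0.0692 and 0 in RPP. Tnfrsf10b, the single TRAIL death receptor of the mouse, was at 20.2, 22.3 and 24.0 CPM in RPP-A, against 3.02, 2.49 and 1.48 in RPP. Casp4 was at 32.6, 33.3 and 36.1 CPM in RPP-A, against 0.571, 0.208 and 0.351 in RPP. Gsdmd was at 88.5, 91.3 and 95.8 CPM in RPP-A, against 3.18, 4.29 and 4.78 in RPP. The lines did not overlap for any of these 4 genes, which is read against the same share of all genes. Casp8 was at 47.3, 50.9 and 57.7 CPM in RPP-A, against 25.2, 27.7 and 28.5 in RPP, and Ripk1 at 77.9, 83.2 and 88.0 CPM, against 47.8, 51.0 and 45.3.

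**Figure D3:**
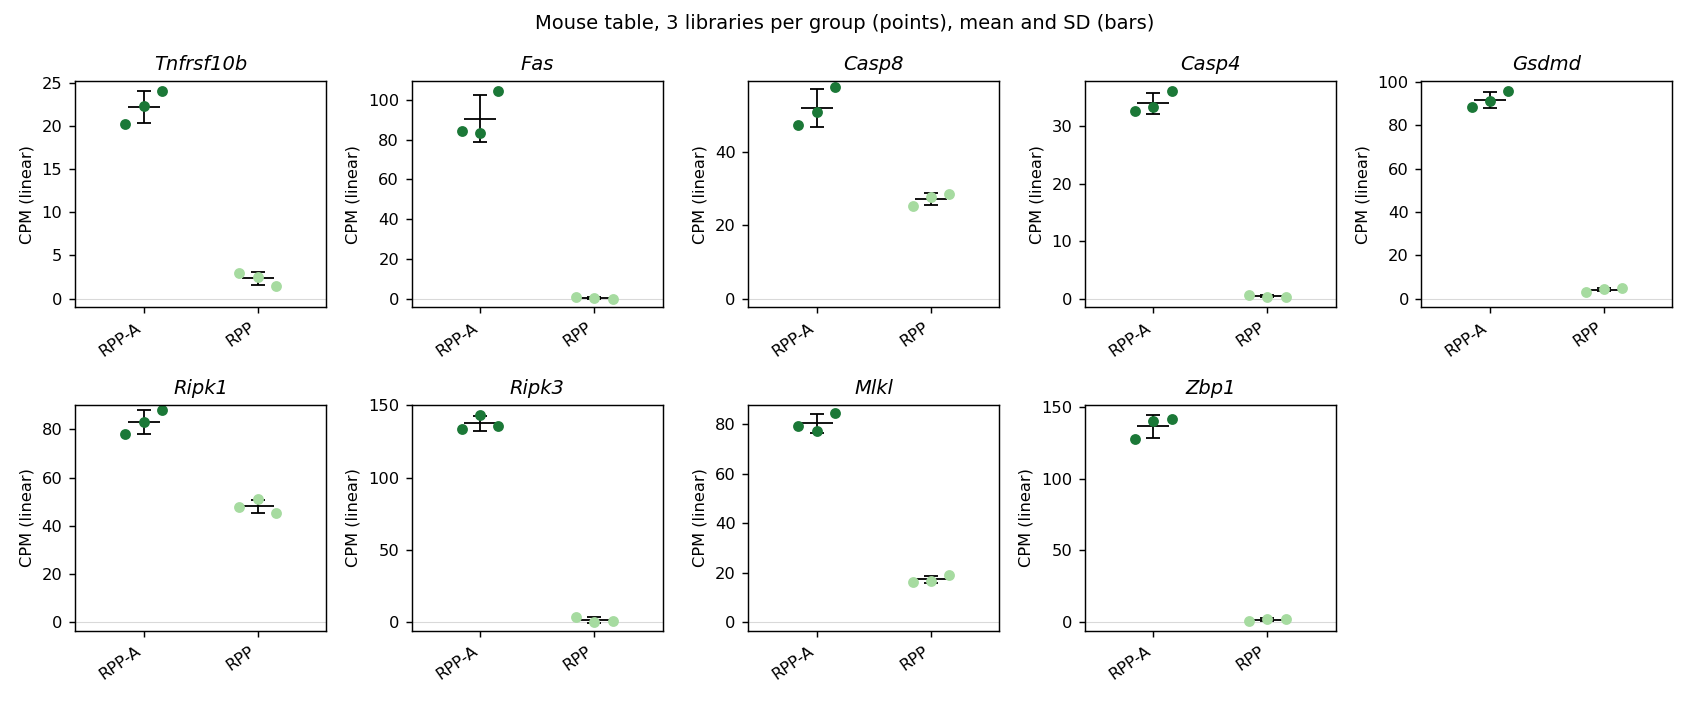
CPM of the 9 members on linear axes in RPP-A and RPP. Points are the 3 libraries of each group and bars the mean ± SD, and RPP-A lies above RPP without overlap for every member (82.3% of all genes tested did not overlap, 39.7% with RPP-A higher), with Ripk3 and Zbp1 above 120 CPM in RPP-A.

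All 9 members passed the filter in the mouse and all 9 were higher in RPP-A, in a comparison where 78.2% of genes were called. The log2 fold changes were 8.63 ± 0.45 for Fas (adjusted p = 1.32e-06), 6.50 ± 0.24 for Casp4 (adjusted p = 2.93e-07), 6.45 ± 0.52 for Ripk3 (adjusted p = 1.36e-05), 6.25 ± 0.30 for Zbp1 (adjusted p = 9.57e-07) and 4.48 ± 0.15 for Gsdmd (adjusted p = 2.15e-07). They were 3.26 ± 0.24 for Tnfrsf10b (adjusted p = 7.52e-06), 2.21 ± 0.10 for Mlkl (adjusted p = 6.39e-07), 0.94 ± 0.11 for Casp8 (adjusted p = 1.04e-04) and 0.79 ± 0.09 for Ripk1 (adjusted p = 1.01e-04). No RPP library reached the filter level of 0.678 CPM for Casp4, which had to differ. Only 1 of 3 RPP libraries reached it for Fas and 2 of 3 for Ripk3. Fas and Ripk3 thus also passed the filter only through RPP-A, so their rise was favoured in advance. Without EHK_RPP4, Ripk3 was at 7.88, and Fas, left with 1 count in RPP, was higher in RPP-A at a ratio of 2596 (95% counting interval 465.7 to 102600). With EHK_RPP4 and RPPM3 both left out, a choice made after these libraries were seen to stand apart, Ripk3 was at 7.89. With limma-voom Fas was at 9.37 and Ripk3 at 7.04. With library totals in place of TMM, the median log2 fold change of all genes was -0.40 here, beside -0.04 with TMM, and Casp8 was then at 0.57 (adjusted p = 0.00176) and Ripk1 at 0.42 (adjusted p = 0.00286).

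**Figure D4:**
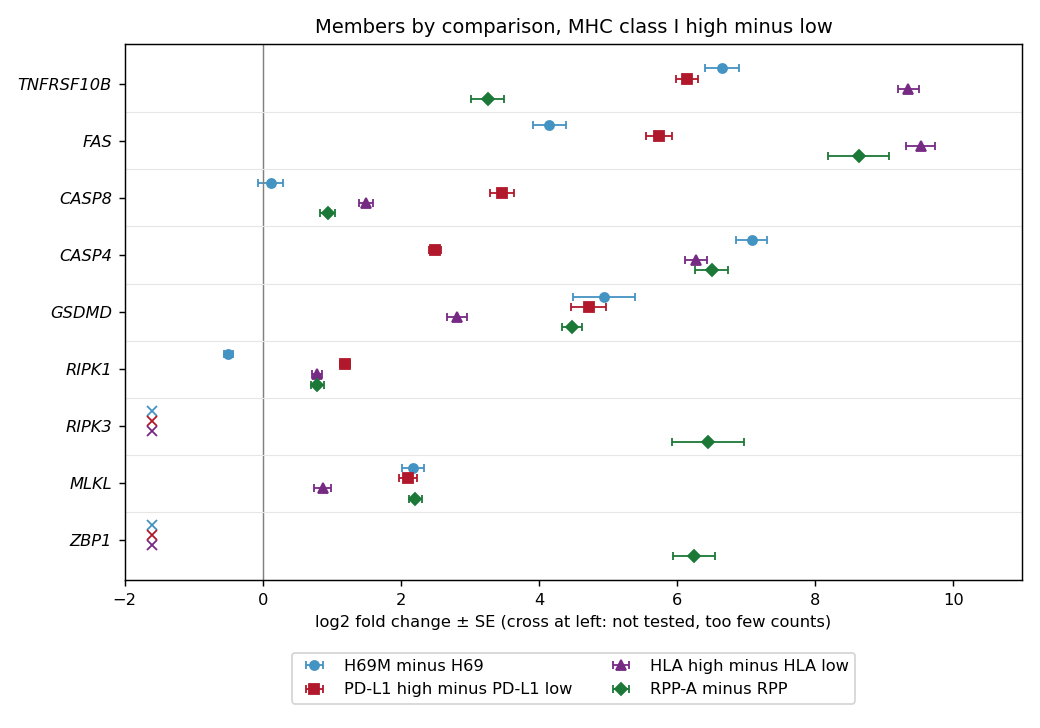
Log2 fold change ± SE of each member in H69M minus H69, PD-L1 high minus PD-L1 low, HLA high minus HLA low and RPP-A minus RPP. Crosses at the left mark RIPK3 and ZBP1 in the human tables, which had too few counts for a test, and RIPK1 in H69M minus H69 is the single value below 0 (-0.50 ± 0.07).

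Across the 4 comparisons of cells high and low for MHC class I, TNFRSF10B, FAS, CASP4, GSDMD and MLKL were higher in the MHC class I high cells each time. CASP8 was higher in 3 of the 4 and RIPK1 in 3, with H69M minus H69 the exception for both. Of all genes tested, 35.9% to 41.1% were called higher in each comparison, and the share higher in all 4 was not worked out. TNFRSF10B, FAS, CASP4 and GSDMD had to differ in 1 or more of the comparisons, as given above. Comparisons in different tables were not tested against each other.

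The other genes of these pathways were read from 5 lists, with no test of a list as a whole. Some listed genes had few or no counts in a group and passed the filter through others, so they had to differ. Among those named below, these include TNFRSF10D, TNFRSF10C, CASP10, BIRC3, IL1B, CASP1, TLR3 and, in H69M against H69, TNF. In the mouse they include Casp12, Gsdma and Tnfrsf25. All such genes are part of the counts and medians. Of all genes tested, 35.9% were called higher and 36.6% lower in H69M against H69, 39.0% and 39.4% in the PD-L1 high fraction, 41.1% and 40.2% in HLA high cells and 37.6% and 40.6% in RPP-A, and the counts below are read against these shares. Among death receptors and their ligands, 4 of 7 tested genes rose and 2 fell in H69M against H69, 5 rose and 1 fell in the PD-L1 high fraction, 6 of 9 rose and 2 fell in HLA high cells and 1 of 4 rose and 2 fell in RPP-A. TNFRSF10D, a TRAIL receptor without a working death domain, was higher in H69M than in H69, with 2 counts there (ratio 104, 95% counting interval 28.4 to 862), and in the PD-L1 high fraction (6.18 ± 0.28). TNFRSF10C, a decoy TRAIL receptor, had 1 count in HLA low cells and was higher in HLA high cells at a ratio of 347 (61.8 to 13740). TNF, the ligand of TNFRSF1A, fell by 5.18 ± 0.39 in H69M, which held 5 counts, against 183 in H69. It fell by 1.37 ± 0.08 in HLA high cells, where it was at 14.6 ± 0.179 CPM, against 37.8 ± 0.0201 in HLA low cells. In the mouse, Tnfrsf1a, the main TNF receptor, was higher in RPP-A (2.99 ± 0.09). Tnfrsf25 was lower there (-2.95 ± 0.38), with 16 counts, against 106 in RPP.

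Of 16 adaptors and regulators around caspase-8, 6 rose and 4 fell in H69M, 13 rose and 0 fell in the PD-L1 high fraction and 11 rose and 3 fell in HLA high cells, while 12 of 15 rose and 3 fell in RPP-A. CASP10, the closest relative of CASP8 and not listed in the mouse table, had no count in H69 and was at least 24.8-fold higher in H69M, and rose by 5.84 ± 0.27 in the PD-L1 high fraction. CFLAR, which encodes the caspase-8 inhibitor c-FLIP, was lower in H69M than in H69 (-0.48 ± 0.06). BIRC3, a ubiquitin ligase of the TNF receptor complex, had 2 counts in HLA low cells and was higher in HLA high cells at a ratio of 1290 (356.8 to 10660), and Birc3 rose by 3.17 ± 0.24 in RPP-A. TRAF2 in HLA high cells (-0.83 ± 0.08) and Map3k7 in RPP-A (-0.78 ± 0.09) were lower.

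The executioner and mitochondrial caspase genes moved in both directions. Of 10, 5 rose and 4 fell in H69M, 6 rose and 2 fell in the PD-L1 high fraction, 5 rose and 4 fell in HLA high cells and 2 rose and 6 fell in RPP-A, with medians of 0.16, 0.26, 0.05 and -0.41. CASP9, the caspase of the apoptosome, rose by 1.32 ± 0.19 in H69M, whereas Casp9 fell by 1.18 ± 0.09 in RPP-A. CYCS, cytochrome c, fell by 0.85 ± 0.09 in H69M and by 0.50 ± 0.06 in HLA high cells. BID, which caspase-8 cleaves to engage mitochondria, fell by 0.22 ± 0.09 in the PD-L1 high fraction, and Bid rose by 2.31 ± 0.15 in RPP-A.

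Of 13 inflammasome and gasdermin genes tested in each setting, 12 rose and 0 fell in H69M, 11 rose and 1 fell in the PD-L1 high fraction, 9 rose and 1 fell in HLA high cells and 11 rose and 2 fell in RPP-A, with medians of 2.93, 5.63, 5.63 and 2.78. The filter left out 7 listed genes in each human table and 3 of 16 in the mouse, so these counts leave out genes near 0 in all groups. They keep genes near 0 only in the lower group, such as IL1B and CASP1, which could only rise. IL1B, the cytokine that caspase-1 matures, had no count in H69 and was at least 161-fold higher in H69M, and had 1 count in HLA low cells, with a ratio of 3617 in HLA high cells (648.7 to 142900). CASP1, the inflammasome caspase, had 2 counts in the PD-L1 low fraction and was higher in the PD-L1 high fraction at a ratio of 322 (88.6 to 2662). Casp12, a neighbour of Casp4 in the caspase-1 family, rose by 9.15 ± 0.52 in RPP-A. PYCARD, the inflammasome adaptor ASC, fell by 1.26 ± 0.32 in the PD-L1 high fraction, and GSDMB by 2.07 ± 0.14 in HLA high cells. Gsdma had 1 count in RPP-A and was at 15.9 ± 11.7 CPM in RPP.

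A further 4 genes around the RHIM proteins and ZBP1 were looked at as well. Of these 4, 2 rose and 1 fell in H69M, 3 rose and 1 fell in the PD-L1 high fraction, 1 of 3 tested rose and 2 fell in HLA high cells, and 3 rose and 0 fell in RPP-A. TICAM1, the RHIM adaptor of TLR3, rose by 2.30 ± 0.11 in H69M, fell by 1.14 ± 0.08 in HLA high cells, and Ticam1 rose by 2.01 ± 0.20 in RPP-A. TLR3, a receptor for double-stranded RNA, had 1 count in the PD-L1 low fraction and was higher in the PD-L1 high fraction at a ratio of 104 (18.3 to 4155). ADAR, which edits double-stranded RNA and restrains ZBP1, rose by 0.72 ± 0.06 in HLA high cells. PGAM5, a mitochondrial phosphatase, fell by 0.15 ± 0.06 in H69M (adjusted p = 0.0255) and by 0.29 ± 0.06 in the PD-L1 high fraction.

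**Figure D5:**
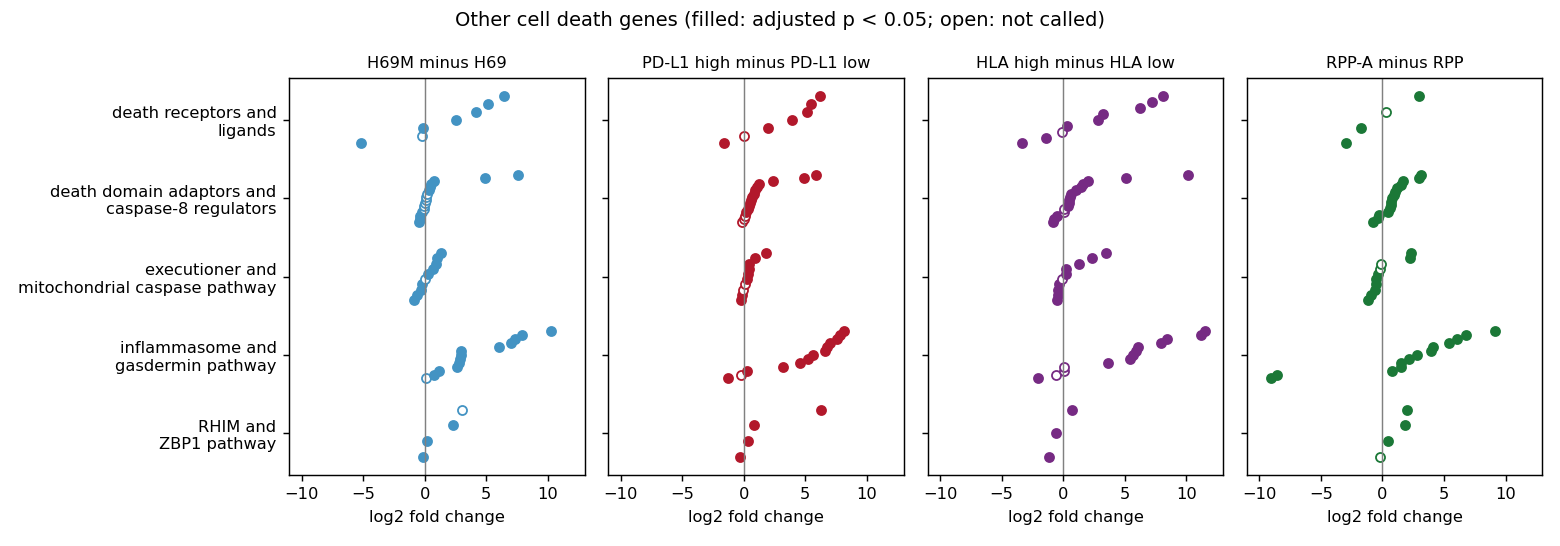
Log2 fold changes of the tested genes of the 5 pathway lists in the 4 comparisons, 1 point per gene, filled where the adjusted p was under 0.05. Points of the inflammasome and gasdermin list lie mostly to the right of 0 in each panel, and those of the executioner and mitochondrial list lie on both sides of it. Genes near 0 in a group that passed the filter through others had to differ.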

How the data were processed

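RNA libraries were made by exome capture of total RNA and sequenced on a NextSeq, per the labels' protocols. The authors deposited whole-number read counts per gene, in 3 tables. STAR 2.6.1 and the builds hg19 and mm10 are named per the submitters' processing notes, while the sources used here name no counting program, annotation or strand setting. The mouse columns could be matched to groups but not to numbered replicates, and those named RPPM were taken as RPP-A.

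Each table was fitted on its own, all its groups together, with edgeR 4.0.16 in R 4.3.3 (quasi-likelihood F-test, two-sided, TMM, filterByExpr with a minimum count of 10), which tested 15445, 14819 and 14032 genes. P-values were adjusted by Benjamini-Hochberg across every gene tested in a table, and genes were called under 0.05. The SE is the log2 fold change over the square root of F. Alternatives were other filters and size factors, DESeq2 1.42.0, limma-voom (limma 3.58.1), only the groups compared, a 2-fold minimum, the replicate number as a block, library totals, RPPM1 and RPPM2 summed, and each library left out. Leaving out EHK_RPP4 and RPPM3 together was added after seeing the data.

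The members and gene lists were chosen with earlier results of these data known. In each list the largest called rise and fall at 1 CPM or more are named, and per member the 3 genes with the highest r of log2(CPM + 0.5). Some genes that these rules pick are not reported here. Intervals and floors cover counting error only.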

Additional observations from a re-analysis of the deposited data

Results flagged for a closer look

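For 4 of the 7 members tested, against 71.4% of all genes tested, the change between the PD-L1 high and PD-L1 low fractions differed from the change of H69M minus H69, by a test of the difference itself in the edgeR fit. The difference was 3.34 on the log2 scale for CASP8, whose log2 fold change was 3.46 ± 0.18 with the sort and 0.12 ± 0.18 in H69M minus H69 (SE, n = 3 libraries each). It was 1.69 for RIPK1, higher with the sort (1.19 ± 0.07) and lower in H69M than in H69 (-0.50 ± 0.07). RIPK1 libraries overlapped in neither, as held for 80.1% of all genes tested in the sort and 72.9% in H69M minus H69. The difference was 1.59 for FAS (5.74 ± 0.19 and 4.15 ± 0.24), a call that rests on H69 replicate 2. It was -4.59 for CASP4 (2.49 ± 0.09 and 7.08 ± 0.22), for which the PD-L1 low fraction was itself 6.11 ± 0.26 above H69.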

How the results depend on the processing

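The number of members called stayed within 1.5 times of the main count under every alternative run. A 2-fold minimum left 5 of 6 in H69M minus H69 and 4 of 6 in PD-L1 low minus H69. It left 6 of 7 in PD-L1 high minus H69 and all 7 in PD-L1 high minus PD-L1 low. In PD-L1 low minus H69M, PD-L1 high minus H69M and HLA high minus HLA low it left 5 of 7 each, and in RPP-A minus RPP 7 of 9. Of the recomputed log2 fold changes of single members, 916 kept their direction and side of the threshold, 2 lost the call and 4 changed sign. Calls were lost for GSDMD in PD-L1 low minus H69 without PD-L1 low replicate 1 (1.77) and for FAS in the difference test without H69 replicate 2 (1.37). With only the PD-L1 low fraction and H69 fitted, GSDMD did not pass the filter and so was not recomputed, and 5 members were called in place of 6. In the difference test, leaving out single libraries turned 2 uncalled values to the other sign, over a range of -0.183 to 0.0523 for MLKL and -1.33 to 0.495 for GSDMD.

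A 2-fold minimum left 3669 of 11195 called genes in H69M minus H69, 5144 of 12100 in PD-L1 high minus low, 3933 of 11723 in PD-L1 low minus H69, 4982 of 11986 in PD-L1 high minus H69, 2533 of 10134 in PD-L1 low minus H69M, 3631 of 10874 in PD-L1 high minus H69M, 5082 of 12055 in HLA high minus low, 7016 of 10975 in RPP-A minus RPP and 5144 of 11026 in the difference test. Libraries of the same replicate number had correlations of deviations from -0.262 to 0.178. Pairs of unlike number were not set beside them, so this cannot show whether the libraries were paired. The replicate block moved no count of genes called by over 1.5 times (10915 genes in H69M minus H69). Low counts in H69, HLA low and RPP limit the size of the largest folds.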
